A study of Mus musculus with 4 samples.

Results

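Inner ear organoids that lack Tmprss3 were compared with themselves across time, day 35 of culture over day 25. The comparison takes in both whole libraries of that genotype, and its members are all cell barcodes with at least 500 genes detected and at most 10% of their UMIs (unique molecular identifiers, which count captured RNA molecules) from mitochondrially encoded genes. This gave 17919 of the 35853 such cells of the series, 11190 at day 25 and 6729 at day 35. The series holds 4 droplet libraries of single cells, 1 for each genotype and day. The KO cells carry the genotype Tmprss3KO-GFPKI, a knockout of Tmprss3 with a GFP knock-in, and the wild-type (WT) cells are the mouse embryonic stem cell line R1/E, both of the derived strain 129X1x129S1. WT organoids were sampled on the same days and are given beside the KO values only. Every group is 1 library, so no difference here has a replicate check and none was tested. All intervals are exact 95% intervals that cover counting error only, and the labels do not say how many organoids or cultures went into a library.

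Inner ear organoids are grown from aggregates of pluripotent stem cells that are guided toward otic vesicles, which then form sensory patches with hair cells and their supporting epithelium. Mesenchyme, muscle, neural cells, glia and skin-like epithelium commonly form in the same aggregates. Tmprss3 encodes a membrane-anchored serine protease whose loss causes deafness in humans and degeneration of cochlear hair cells in mice. Because the whole organoid is sequenced, a level summed over a library depends on which cells are present as well as on what each cell makes.

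Tmprss3 (chromosome 17, 31179265 to 31198977 on the minus strand of mm10) itself gave 7 UMIs at day 25 and 5 UMIs at day 35 in KO, which is 0.0829 and 0.131 CPM (counts per 1000000 UMIs of the library), against 18 and 8 UMIs in WT. Counts at the 3' end of the gene do not check a deletion elsewhere in it, and at this depth the days could not be told apart. The kept KO cells held 84439223 UMIs at day 25 and 38307020 at day 35, with medians of 6371 and 4420 UMIs and of 2048 and 1722 genes a cell. Mitochondrially encoded genes took 2.52% and 3.72% of the UMIs and ribosomal protein genes 30.4% and 21.8%. The KO libraries shared 105 barcode sequences, 0.938% of the cells of day 25. No doublet caller was used. Depth, mitochondrial share and cell makeup all moved with the day, and their part in the results below was not tested.

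Over the whole organoid, genes of pluripotent cells and of otic epithelium were higher at day 35, and genes of macrophages, of skeletal muscle and of the imprinted class were lower. Of 14169 genes with at least 100 UMIs over both KO libraries, called measured here, 1391 (9.82%) were at least 2-fold higher at day 35 and 900 (6.35%) at least 2-fold lower. These shares of all measured genes are the background for each count of list members below. The median gene lay at a log2 CPM ratio of 0.13. Scaling by trimmed mean (TMM) moved every log2 ratio by -0.18 and gave 1106 higher and 1208 lower, so the balance between both directions rests on the scaling. In whole-library levels, fewer cells of a type and less RNA per cell cannot be told apart, which is why shares of cells and levels within marker gates are given beside them.

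**Figure D1:**
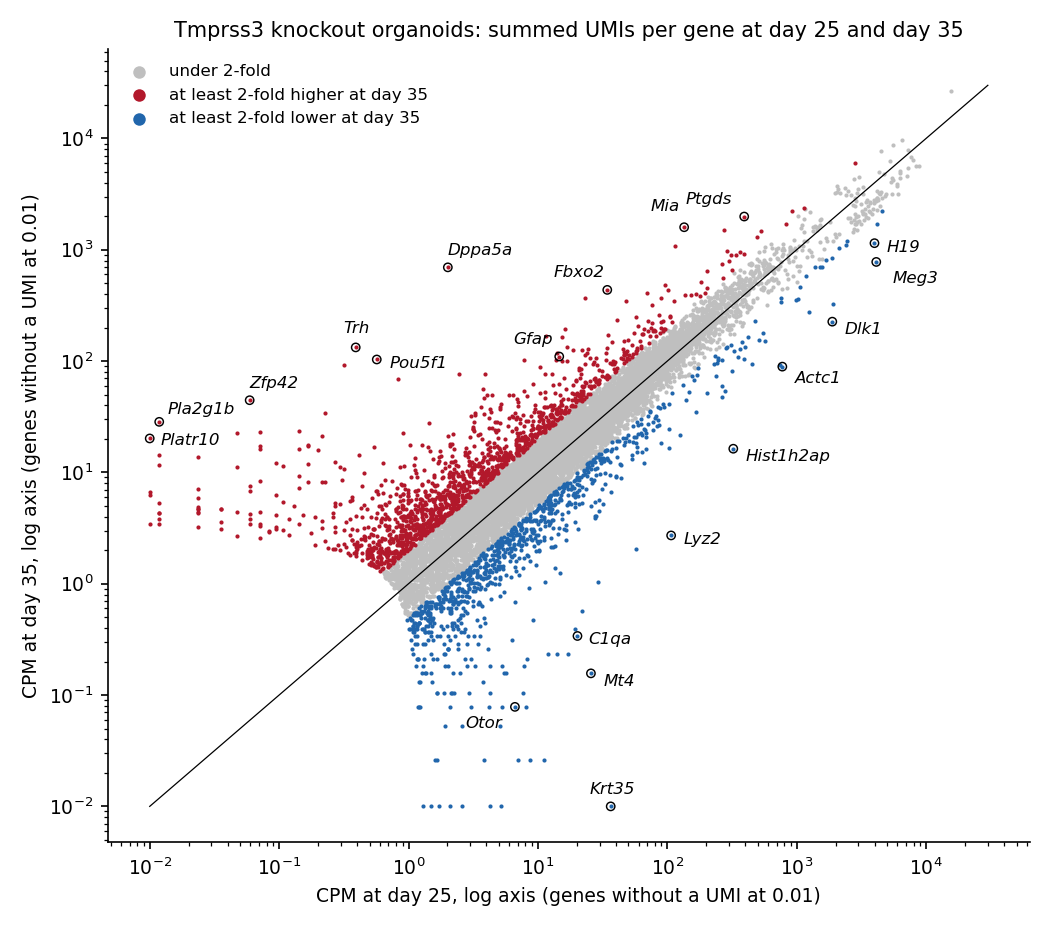
Level of each of the 14169 measured genes in the KO libraries, as CPM at day 25 (x) and day 35 (y) on log axes, with genes that lack a UMI on 1 side drawn at 0.01. The 1391 red points are at least 2-fold higher at day 35 and the 900 blue points at least 2-fold lower, and the labelled genes are described in the text.

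Cells were sorted into 18 marker gates. A cell belonged to a gate if at least 3 of that gate's markers had a UMI after every cell was thinned to 2000 UMIs, which equalises depth (no KO cell held fewer). Of the 15 gates with at least 20 cells over both days, 4 were at least 2-fold more frequent at day 35 (pluripotent, otic epithelium, hair cell and astrocyte) and 5 were at least 2-fold less frequent (immune, neuron, Schwann or satellite glia, myogenic progenitor and skeletal muscle fibre). With a stricter filter on cells (at least 1000 genes and at most 5% mitochondrial UMIs) only 2 were 2-fold more frequent. The fibroblast gate was the most populated on both days, at 36.5% of cells (35.6 to 37.4%) and 29.0% (27.9 to 30.1%). At day 25 32.9% of KO cells were in no gate and 12.7% in more than 1 gate other than the cycling gate, and at day 35 these shares were 41.8% and 5.78%. A gate is a set of cells with marker RNA, not a purified cell type.

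**Figure D2:**
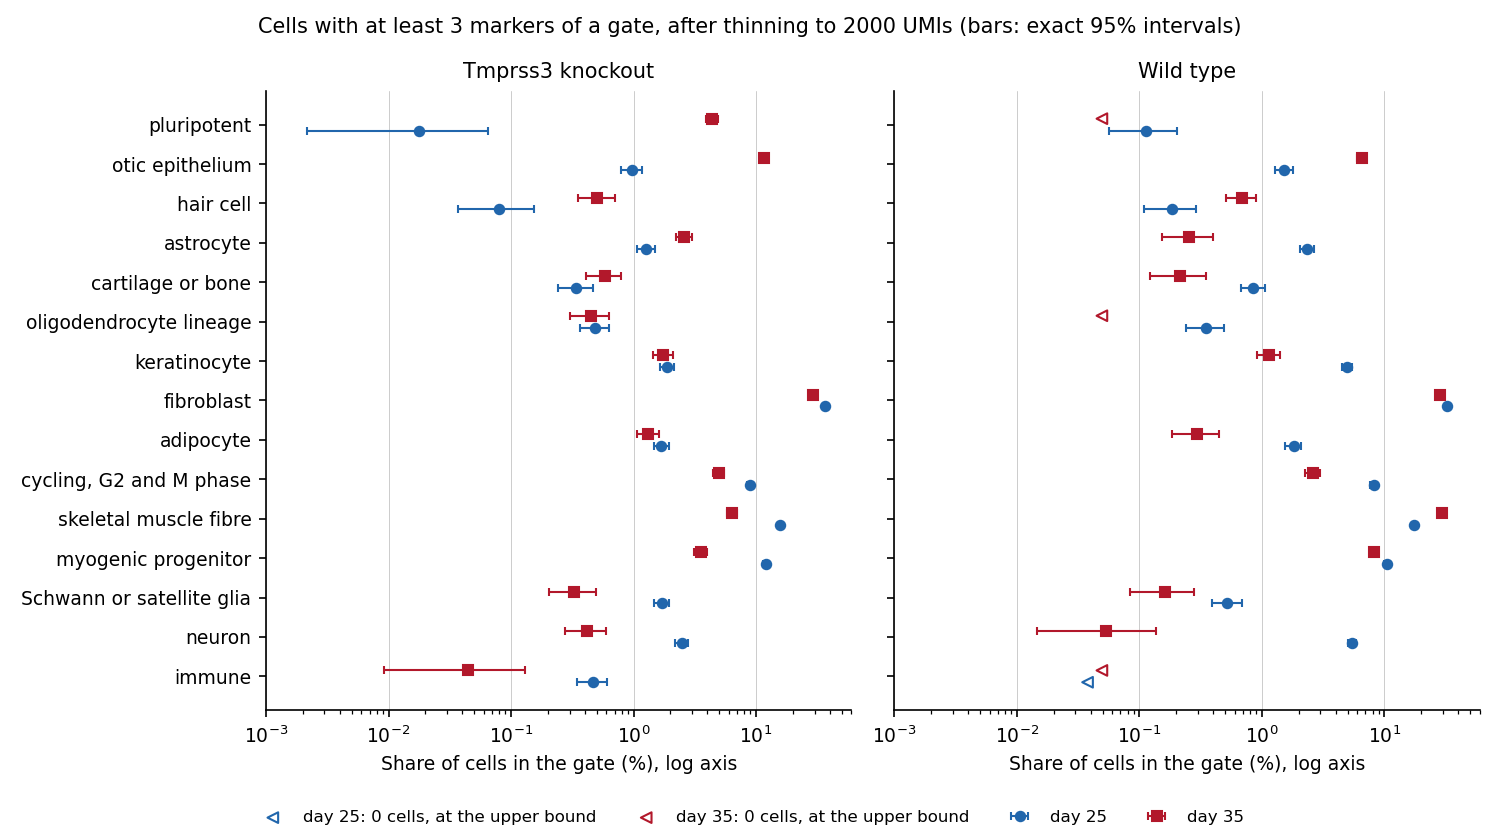
Share of cells in each of the 15 marker gates at day 25 (blue circles) and day 35 (red squares), in percent on a log axis, for KO (left) and WT (right), with exact 95% intervals. In KO the pluripotent gate went from 0.0179% to 4.35% and the otic epithelium gate from 0.965% to 11.7%, and open triangles mark gates with 0 cells.

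By ratio of shares, the gate that differed most was that of pluripotency genes. Of the 11190 cells of day 25 the pluripotent gate held 2, and of the 6729 of day 35 it held 293, or 0.0179% (0.00216 to 0.0645%) and 4.35% (3.88 to 4.87%). Its cells were large, with a median of 14032 UMIs at day 35, and held 12.4% of all UMIs of that library. In WT the gate held 11 cells at day 25 and 0 at day 35.

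Of the 14 pluripotency genes listed, 13 were measured and all 13 were at least 2-fold higher at day 35, against 9.82% of all measured genes, with a median log2 ratio of 7.51. Pou5f1, the core transcription factor of pluripotent cells, was at 0.568 CPM at day 25 and 103 CPM at day 35, a log2 ratio of 7.51 (7.10 to 7.95). Nanog, its partner in the self-renewal network, was at 0.166 and 17.1 CPM (6.69). Dppa5a, an RNA-binding protein of embryonic stem and germ cells, was at 2.01 CPM at day 25 and 695 CPM at day 35 (8.43, interval 8.21 to 8.66). Zfp42 (Rex1) and Esrrb, which are known from the naive state, had 5 and 1705 UMIs and 7 and 80 UMIs, the latter too few to count as measured. Utf1, a chromatin protein of undifferentiated cells, was at 0.320 and 92.0 CPM (8.17), and Tdgf1, the Nodal co-receptor Cripto, at 0.225 and 33.9 CPM (7.24). The lowest ratio of the list was that of Dnmt3l, a cofactor of de novo DNA methylation, at 1.35. In WT Pou5f1 was at 3.33 and 0.259 CPM and Dppa5a at 18.8 and 0.130 CPM at day 25 and day 35. Whether the genotypes differ was not tested.

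Ranked by the bound of the interval nearest 0, the 15 highest genes included Zfp42, Dppa5a, Utf1, Dppa3 and Pou5f1 of that list. Platr10, a noncoding RNA, had 0 and 773 UMIs, at least 568-fold higher against a floor of 3 UMIs per library. Trh, which encodes thyrotropin-releasing hormone, was at 0.391 and 133 CPM (8.41). Germline genes were among them: Dazl, an RNA-binding protein of germ cells, was at 0.0711 and 17.3 CPM (7.92), Dppa3 (Stella) at 0.0237 and 13.7 CPM (9.17), and Hormad1, a protein of the meiotic chromosome axis, had 0 and 255 UMIs. Lin28a, which blocks let-7 processing, had 1 and 451 UMIs, a log2 ratio of 9.96 with a wide interval (7.47 to 15.26). L1td1, Dppa4, Pla2g1b, Car4 and 2410141K09Rik completed the 15 highest, with log2 ratios of 8.90, 8.33, 11.23, 10.25 and 7.47.

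Most of this RNA lay in the pluripotent gate itself. At day 35 the gate's cells held 92.7% of all Dppa5a UMIs and 87.3% of all Pou5f1 UMIs. Dppa5a was also found at a low level in other gates: among cells of the fibroblast gate it was at 0.372 and 37.2 CPM and 4.72% of the thinned cells had a UMI, against 98.0% in the pluripotent gate. That share was 3.70% in the otic epithelium gate, 4.66% in the muscle fibre gate and 5.98% in the keratinocyte gate. Of the 28 cells of the neuron gate 3 had a UMI after thinning, and the gate's level of 499.6 CPM rests on 141 UMIs. Free RNA and cells that hold 2 types were not told apart from expression here. Over all cells outside the pluripotent gate the list's median was still 5.22, and 12 of the 13 genes were at least 2-fold higher there.

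A smaller share of cells carried cell division genes at day 35, and most of these were also in the pluripotent gate. The cycling gate, built on genes of G2 and M phase, held 994 cells at day 25 (8.88%) and 334 at day 35 (4.96%), a ratio of 0.559 (0.492 to 0.633). At day 35, 198 of the 334 (59.3%) were also in the pluripotent gate, and 67.6% of pluripotent-gate cells were in the cycling gate. Without the pluripotent gate the cycling share was 8.88% at day 25 and 2.11% at day 35, a ratio of 0.238 (0.197 to 0.285). In WT, without the pluripotent gate, it was 8.15% and 2.61%.

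The 15 genes of G2 and M phase had a median log2 ratio of -0.39, with 0 at least 2-fold higher and 1 at least 2-fold lower. Without the cells of the pluripotent gate the median was -1.56 and 12 of the 15 were at least 2-fold lower. Cdk1, the kinase that drives entry into mitosis, was at 83.8 and 45.2 CPM over all cells (-0.89) and had a log2 ratio of -1.72 outside the gate. Top2a, the topoisomerase that untangles replicated chromosomes, had -0.35 and -1.60. Ccnb1, the mitotic cyclin B1, lay on opposite sides of 0, with 0.52 over all cells and -1.12 outside the gate. The list of 19 S phase genes did so too, with a median of 0.43 over all cells and -0.95 outside the gate, where 16 of 19 lay below 0. Among them Hells, a chromatin remodeller needed for DNA methylation, was at 10.3 and 51.7 CPM (2.33) over all cells and had 0.05 outside the gate. Pcna, the sliding clamp of DNA polymerase, was higher outside it too (1.33 and 0.74), and so did Slbp, which binds histone mRNA (0.61 and 0.30).

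**Figure D3:**
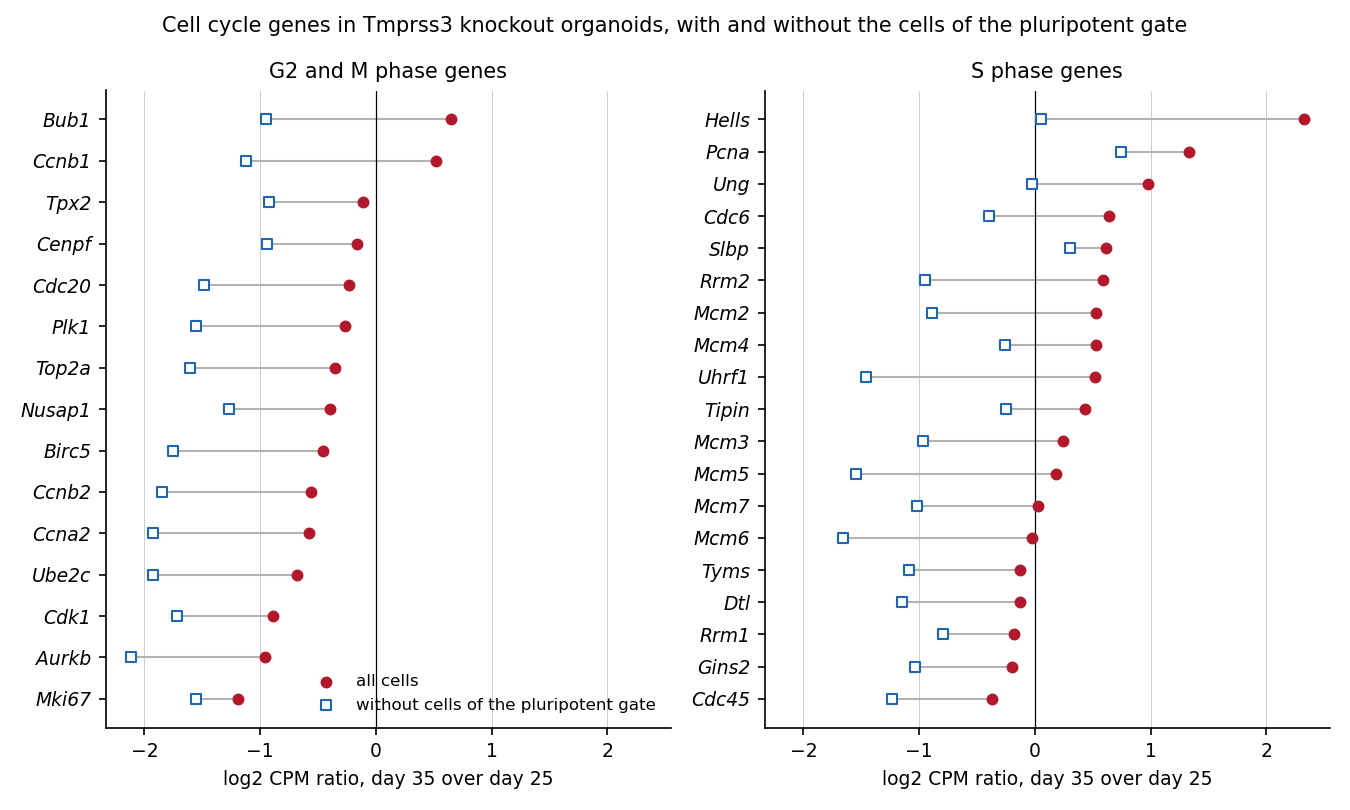
log2 CPM ratio, day 35 over day 25, of the 15 G2 and M phase genes (left) and the 19 S phase genes (right) in KO, over all cells (red circles) and without the cells of the pluripotent gate (open blue squares). Every gene has a lower ratio without these cells, and the median of the S phase genes goes from 0.43 to -0.95.

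Genes of G2 and M phase are known to be timed through promoter elements called the cell cycle genes homology region, with the letters TTTGAA or TTCGAA, and CCAAT boxes. Promoter sequences from RefSeq (build GRCm38.p6, 250 bases before to 50 after the start) were on hand for 12 of the 15 listed genes, not for Tpx2, Aurkb and Ccna2. Searched on both strands, TTTGAA or TTCGAA was in 9 of these 12, against 19.2% of all 32851 promoters, and CCAAT in 10 of 12, against 37.4%. The motifs do not overlap in letters, and both kinds were together in 9 of 12, against 7.52% of all promoters. The 150 bases before the start of 4 of these genes are shown because they carry both elements and because these genes were low together outside the pluripotent gate. Capitals mark these motifs or their reverse complements, on the gene's own strand from 5′ to 3′.
Cdk1, chr10:69352913-69353062, minus strand: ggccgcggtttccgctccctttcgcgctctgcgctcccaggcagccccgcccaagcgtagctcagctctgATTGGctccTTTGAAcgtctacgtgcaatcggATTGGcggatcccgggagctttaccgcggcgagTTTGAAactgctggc
Top2a, chr11:99024190-99024339, minus strand: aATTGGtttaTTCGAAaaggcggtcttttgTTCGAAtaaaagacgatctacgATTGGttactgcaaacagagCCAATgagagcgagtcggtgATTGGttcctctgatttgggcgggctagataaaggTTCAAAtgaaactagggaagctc
Mki67, chr7:135716380-135716529, minus strand: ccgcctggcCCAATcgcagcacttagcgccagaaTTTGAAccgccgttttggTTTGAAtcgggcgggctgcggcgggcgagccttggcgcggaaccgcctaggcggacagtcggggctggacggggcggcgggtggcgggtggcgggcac
Cdc20, chr4:118437344-118437493, minus strand: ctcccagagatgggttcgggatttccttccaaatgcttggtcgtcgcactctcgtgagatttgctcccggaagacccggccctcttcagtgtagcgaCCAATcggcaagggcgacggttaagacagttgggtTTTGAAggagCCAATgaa
A match of these letters is a description and does not show that a factor binds there.

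Otic epithelium made up a larger part of KO organoids at day 35. Its gate, built on genes of otoconia, tectorial membranes and otic vesicles, held 108 cells (0.965%, 0.792 to 1.16%) at day 25 and 784 cells (11.7%, 10.9 to 12.4%) at day 35, a ratio of 12.1 (9.86 to 14.9). In WT the shares were 1.52% and 6.52%. Of its 12 markers 10 were measured, 9 of them at least 2-fold higher and 1 at least 2-fold lower, with a median log2 ratio of 2.63.

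By role, Otol1 (otolin, a collagen of the otoconial matrix) was at 7.82 and 102 CPM (3.70). Otoa (otoancorin, which attaches the tectorial membrane to supporting cells) was at 10.4 and 87.6 CPM (3.07). Both were higher at day 35, as were Otog (otogelin) at 7.88 and 53.8 CPM (2.77) and Tecta (alpha-tectorin) at 2.71 and 15.3 CPM (2.50). Cldn9, a claudin that seals the endolymph compartment, was at 16.2 and 195 CPM (3.59). Fbxo2, a ubiquitin ligase subunit abundant in the organ of Corti, was at 34.4 and 436 CPM (3.67). The early otic regulators Lmx1a, Pax2 and Pax8 had 2.01, 1.49 and 1.59. Oc90, the main otoconial protein of the early vesicle, was the exception and was lower, at 7.67 CPM at day 25 and 3.63 CPM at day 35 (-1.08).

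Within the cells of the otic gate most of these levels differed less between the days. There Otoa was at 411 and 503 CPM (0.29), Otog at 352 and 329 CPM (-0.10) and Tecta at 129 and 102 CPM (-0.33). Fbxo2 was higher inside the gate too, at 862 and 2135 CPM (1.31), and Oc90 lower, at 303 and 20.5 CPM (-3.88). Since these genes define the gate, their values within it describe its cells and are no separate finding. Among genes that do not, Cst6, a secreted cysteine protease inhibitor, was at 59.4 and 615 CPM (3.37), and the cartilage collagen Col2a1 was at 271 and 13.9 CPM (-4.29). In this gate 3.22% of 8945 genes were at least 2-fold higher and 4.7% at least 2-fold lower.

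Several of the 10 abundant genes with the highest log2 ratios are known from epithelia and are not otic gate markers, and since they were picked for being high, their values are a description. Epcam, the epithelial adhesion molecule, was at 48.0 and 343 CPM (2.84), and Wfdc2, a secreted protease inhibitor of epithelia, at 69.8 and 409.9 CPM (2.55). Gpx2, an epithelial glutathione peroxidase, was at 23.1 and 367 CPM (3.99). Mia, a small secreted protein of cartilage and otic tissue, was at 135 CPM at day 25 and 1593 CPM at day 35 (3.56), and S100a1, a calcium-binding protein, at 114 CPM at day 25 and 1084 CPM at day 35 (3.24). At day 35 cells of the otic gate, 11.7% of all cells, held 70.2% of the Mia UMIs, 65.0% of those of S100a1 and 65.4% of those of Fbxo2. Their higher levels were not limited to that gate. The log2 ratio was above 0 in 11 of 11 gates for Mia and 12 of 12 for S100a1. For Fbxo2 it was above 0 in 8 of 8 gates that it does not define. The part of free RNA in these values was not tested. Cystm1 and 1500015O10Rik (Ecrg4) were among these abundant genes too, at 2.51 and 2.43.

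Few cells carried hair cell genes on either day, with a larger share at day 35. The hair cell gate held 9 cells at day 25 (0.0804%, 0.0368 to 0.153%) and 34 at day 35 (0.505%, 0.350 to 0.705%), a ratio of 6.28 with a wide interval of 2.95 to 14.9. WT held 18 and 51 such cells. Of the 9 KO cells of day 25, 3 were also in the neuron gate and 2 in the muscle fibre gate, and of the 34 of day 35 1 was in each of these. Of 13 markers 8 were measured and 7 were at least 2-fold higher. Cib3, a calcium-binding subunit of the mechanotransduction complex of vestibular hair cells, was at 0.320 and 10.7 CPM (5.07), and Cabp2, which tunes the calcium channel of the hair cell synapse, at 0.995 and 6.55 CPM (2.72). Otof (otoferlin), the calcium sensor of that synapse, was at 0.604 and 1.31 CPM (1.11). The regulators Pou4f3, Atoh1 and Gfi1 had 40 and 47 UMIs, 14 and 6 UMIs and 15 and 44 UMIs, fewer than were needed to count as measured. These are raw counts out of 84439223 UMIs at day 25 and 38307020 at day 35, so a lower count need not be a lower level.

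Genes of the hair bundle, the stack of stereocilia that senses motion, were given from a list of 21, of which 10 were measured, 6 were at least 2-fold higher and 0 at least 2-fold lower (median 1.51). Ush1c (harmonin, the scaffold of the tip link) was at 5.96 and 49.4 CPM (3.05) and Pcdh15, a tip link cadherin, at 1.28 and 7.88 CPM (2.62). Espn (espin, which bundles actin) had a log2 ratio of 1.70, and Tmie, a subunit of the transduction channel, at 0.876 and 2.98 CPM (1.76). Several of these are not particular to hair cells in these libraries: 43.0% of Espn UMIs at day 35 came from the otic gate, where Espn was at 343 and 299.8 CPM and Ush1c at 215 and 270.1 CPM. Whrn, Eps8, Cib2 and Triobp lay between -0.35 and 0.19.

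Skeletal muscle was less frequent at day 35. The muscle fibre gate took in 1757 cells on day 25, or 15.7%, and 429 on day 35, or 6.38%, a ratio of 0.406 (0.365 to 0.451). The myogenic progenitor gate went from 12.0% to 3.52% (0.293), and 63.5% and 69.2% of its cells were also in the fibre gate. Without thinning the fibre gate took 57.1% and 15.5% of cells. In WT the fibre gate held 17.5% and 29.4%, and the difference between the genotypes was not tested.

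All 10 progenitor genes were at least 2-fold lower over the organoid (median -1.69), and of 14 measured fibre genes 10 were at least 2-fold lower and 0 higher (median -1.48). Pax7, the regulator of muscle stem cells, was at 11.0 and 2.61 CPM (-2.08), Myod1, which commits cells to muscle, at 65.9 and 12.0 CPM (-2.45), and Myog, which drives their differentiation, at 509 and 155 CPM (-1.71). Of the structural genes, Myh3, the embryonic myosin heavy chain, was at 63.3 and 15.4 CPM (-2.04), Mylpf, a fast light chain, at 988 CPM at day 25 and 356 CPM at day 35 (-1.47), and Acta1, skeletal actin, at 1046 CPM at day 25 and 650.4 CPM at day 35 (-0.69). Myh1, an adult fast myosin, was the only measured member above 0, at 1.72 and 3.03 CPM (0.82).

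Levels within the fibre gate differed by gene. There Acta1 was at 5332 and 8853 CPM (0.73), while Mylpf was at 5017 and 4871 CPM (-0.04). Both genes are markers of this gate, so these values describe its cells and are no separate finding. Actc1, the actin of heart and of embryonic muscle, was lower inside both muscle gates, at 3392 and 1187 CPM in the fibre gate (-1.52) and -1.14 in the progenitor gate. In the progenitor gate Mb (myoglobin, the oxygen store of muscle) was higher, at 25.9 and 250.4 CPM (3.27). Outside muscle, Actc1 was lower as well, at 166 and 3.54 CPM in the neuron gate and 146 and 9.73 CPM in the fibroblast gate. Actc1 was at least 2-fold lower in 12 of 12 gates, whereas Acta1 was below 0 in 8 of 11 gates and above 0 in 3, and Mb was at least 2-fold higher in 4 of the 4 gates where it was measured. The part of free RNA in these values was not tested.

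Neurons and peripheral glia were also fewer. The neuron gate held 277 cells at day 25 (2.48%) and 28 at day 35 (0.416%), a ratio of 0.168 (0.110 to 0.248). The gate for Schwann cells or satellite glia went from 1.70% to 0.327% (0.193). In WT the neuron gate went from 5.45% to 0.0536%. Of 11 neuron genes 6 were at least 2-fold lower and 1 higher. Tubb3, a neuronal tubulin, was at 41.0 and 13.8 CPM (-1.57), Elavl4, an RNA-binding protein of differentiating neurons, at 11.1 and 2.48 CPM (-2.17), and Dcx (doublecortin), which marks migrating neurons, at 9.58 and 1.96 CPM (-2.29). Nefl, the light neurofilament, was higher, at 4.56 and 10.2 CPM (1.16), but at -0.12 when the cells of highest UMI number were left out. Among the 28 cells of the neuron gate at day 35, Calca, which encodes the sensory peptide CGRP, was at 3.58 and 556 CPM, from 7 and 157 UMIs.

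The astrocyte gate was more frequent at day 35, at 1.27% and 2.59% (2.04, 1.62 to 2.56), but the ratio was 0.863 with the stricter filter on cells, which keeps 4844 cells at day 35, and 1.11 without thinning. Of 10 astrocyte genes 5 were at least 2-fold higher and 2 at least 2-fold lower. Gfap, the intermediate filament of astrocytes, was at 14.6 and 109.9 CPM (2.91), and within the gate at 816 and 3476 CPM (2.09). Since Gfap is a marker of the gate, its level there is no separate finding. Aqp4, the water channel of their end-feet, was at 7.07 and 39.2 CPM (2.47), and Slc1a2, a glutamate transporter, at 3.78 and 12.8 CPM (1.76). Fabp7, a lipid-binding protein of radial glia, was lower, at 312 CPM at day 25 and 139.8 CPM at day 35 (-1.16), and Fgfr3 was lower too (-1.02). In WT Gfap was at 48.8 and 3.98 CPM (-3.61). Of the Aqp4 UMIs at day 35, 58.5% came from the astrocyte gate and 24.0% from the otic gate. The gate also held 77.7% of the UMIs of Lor (loricrin, a cornified envelope protein), although 1 of its 174 thinned cells had a Lor UMI.

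The interval of the oligodendrocyte lineage gate included 1, with 54 cells (0.483%) and 30 cells (0.446%), a ratio of 0.924 (0.571 to 1.47). Its members differed in direction. The lineage regulators Olig1 and Olig2 were lower, at -1.10 and -1.02, and Gpr17, a receptor of the precursor stage, was at 2.58 and 0.888 CPM (-1.54). Ugt8a, which makes myelin galactolipids, was at 0.616 and 2.40 CPM (1.96), and the myelin genes Mobp and Mog had 6 and 50 UMIs and 1 and 16 UMIs. WT held 34 cells of this gate at day 25 and 0 at day 35.

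The keratinocyte gate had a like share on both days, while the levels of Krt1 and Krt10 differed. It held 1.89% and 1.74% of cells, a ratio of 0.922 with an interval (0.729 to 1.16) that includes 1, where WT went from 4.94% to 1.14%. Over its 10 measured genes the median was 0.16, which turns negative under TMM scaling. Krt1 and Krt10, the keratin pair of the suprabasal epidermis, were at 4.32 and 35.0 CPM (3.02) and 33.5 and 102 CPM (1.60). Within the gate they were at 135 and 1562 CPM and 326 and 3301 CPM. Both keratins define the gate, so their values within it describe its cells and are no separate finding. The basal keratins Krt5 and Krt14 had -0.37 and -0.02. In WT Krt1 and Krt10 were both lower at day 35 (-3.96 and -1.38).

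Several of the 15 genes lowest by their bound are known from hair follicle or cornified epithelium, and since they were picked for being low, their values are a description. Krt35, a hair shaft keratin, had 3084 and 0 UMIs, at least 466-fold lower against a floor of 3 UMIs per library. The inner root sheath keratins Krt28 and Krt71 had 729 and 1 UMIs and 592 and 1 UMIs, and Mt4, a metallothionein of stratified epithelium, 2169 and 6 UMIs. Prr9, a proline-rich protein of the cornified layers, had 645 and 4 UMIs. Within the keratinocyte gate Krt35, Krt28 and Mt4 had 1049, 505 and 1116 UMIs at day 25 and 0 each at day 35. In the same gate Ltf (lactotransferrin, a secreted antimicrobial protein) had 0 and 182 UMIs and Wfdc21 1 and 77 UMIs. Dcpp1, a secreted protein gene, had 440 and 0 UMIs over the whole organoid. In WT Krt35 was at 13.5 and 0.0324 CPM.

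Macrophage genes were well measured at day 25 and at or near 0 at day 35. The immune gate held 52 cells and 3 cells, 0.465% (0.347 to 0.609%) and 0.0446% (0.00920 to 0.130%), and 0 cells in both WT libraries. Of 9 measured immune genes 8 were at least 2-fold lower (median -4.79). The complement genes C1qa, C1qb and C1qc, whose products form the starting complex of the classical pathway, were at 20.2 and 0.339 CPM, 19.3 and 0.392 CPM and 17.1 and 0.235 CPM. Lyz2, the lysozyme of macrophages, was at 107 CPM at day 25 and 2.71 CPM at day 35 (-5.30), and 89.9% of its UMIs at day 25 came from the immune gate. Marco, a scavenger receptor, had 937 and 1 UMIs, Ms4a7 683 and 3 UMIs and Fcrls, which marks microglia, 357 and 0 UMIs. Ccl12, a chemokine made by macrophages, had 1184 and 9 UMIs. Cx3cr1 had the smallest difference of the list (-0.55), and Csf1r, the macrophage growth factor receptor, was at -1.53 but at 0.02 without the cells of highest UMI number.

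Imprinted genes, which are expressed from 1 parental copy and many of which control fetal growth, were lower together. Of 22 measured, 14 were at least 2-fold lower and 2 at least 2-fold higher, with a median log2 ratio of -1.45 against 0.13 over all genes and 6.35% at least 2-fold lower. H19, a noncoding RNA that restrains growth, was at 3990.5 CPM at day 25 and 1146 CPM at day 35 (-1.80, interval -1.81 to -1.79), and Igf2, the growth factor gene next to it, at 167 CPM at day 25 and 34.7 CPM at day 35 (-2.27). Of the Dlk1 cluster, Dlk1 itself, a Notch-like membrane protein, was at 1884 CPM at day 25 and 226 CPM at day 35 (-3.06). Its neighbours on the same chromosome arm, the noncoding Meg3 and Mirg and the retrotransposon-derived Rtl1, had -2.41, -2.32 and -3.54. Meg3 was at 4119 CPM at day 25 and 777 CPM at day 35.

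Among the genes active on the paternal copy, Mest, a lipase-like protein, was at 1237 CPM at day 25 and 276 CPM at day 35 (-2.16), Peg3, a zinc finger regulator, at 329 CPM at day 25 and 123 CPM at day 35 (-1.42), and Nnat (neuronatin) at 349 CPM at day 25 and 108 CPM at day 35 (-1.69). Plagl1, the zinc finger gene known to regulate others of this class, was at 264 CPM at day 25 and 47.3 CPM at day 35 (-2.48), and Ndn (necdin) at 247 CPM at day 25 and 103 CPM at day 35 (-1.27). Meg3, Dlk1, Mest, Peg3 and Nnat were each below 0 in 12 of 12 gates with at least 20 cells on each day. H19 differed by gate: within the fibre gate it was at 5370.3 and 5237 CPM (-0.04) and within the progenitor gate at 4374 and 4862 CPM, while in the fibroblast gate it was at 4809.7 and 1777 CPM (-1.44).

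Not all imprinted genes were lower. Snrpn, a splicing protein, was at 85.6 CPM at day 25 and 258 CPM at day 35 (1.59) and above 0 in 12 of 12 gates, from 0.15 in the keratinocyte gate upward. In the cycling gate, which holds most pluripotent-gate cells, its log2 ratio was 4.04, and without the pluripotent gate over the whole organoid 0.89. Phlda2, a growth restrainer of the placenta, was at 1.54 and 5.64 CPM (1.87), and had 0.50 without the pluripotent gate. Outside that gate 0 of the imprinted genes were at least 2-fold higher. Cdkn1c, a cyclin-dependent kinase inhibitor, was at 42.2 and 39.8 CPM (-0.08), where WT was at 578 and 254 CPM. In WT 14 of 21 measured imprinted genes were at least 2-fold lower, with a median of -1.35.

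**Figure D4:**
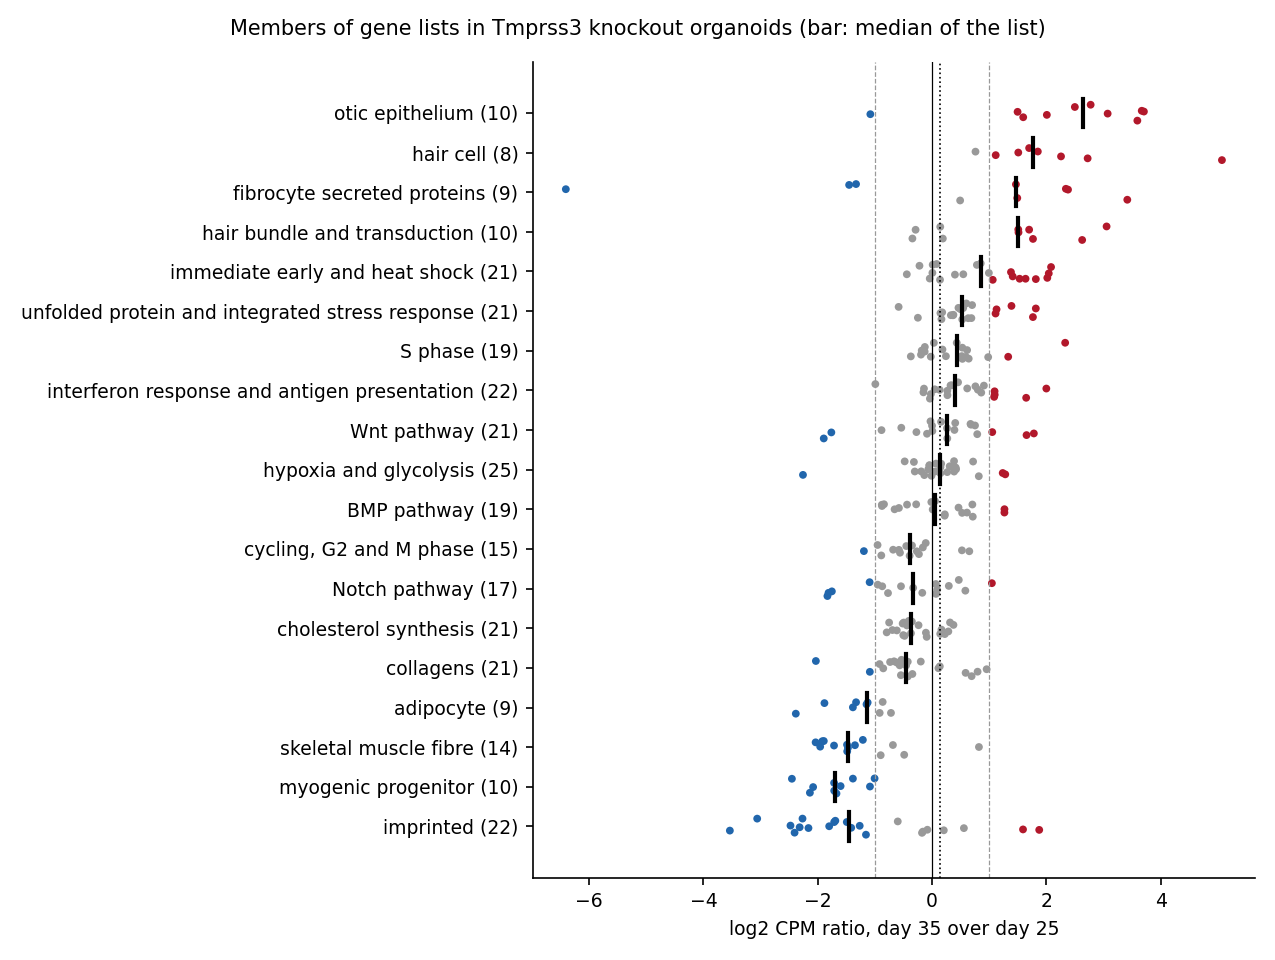
log2 CPM ratio, day 35 over day 25, of the measured members of 19 gene lists in KO, 1 point a gene, with the number measured in brackets and the median as a black bar. Red and blue points are at least 2-fold higher or lower, and the dotted line is the median of all genes (0.13). The bottom list is imprinted genes (median -1.45) and the top list otic epithelium (median 2.63), but the lists are not strictly in order of median. Some lists, the pluripotent and immune ones included, are not drawn.

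Of 21 collagen chains 2 were at least 2-fold lower and 0 higher, a share of lower genes near the 6.35% of all measured genes, with a median of -0.46. Col1a1, the main chain of bone and dermis, was at 2611 CPM at day 25 and 1788 CPM at day 35 (-0.55), and Col2a1 was at 13.0 and 3.18 CPM (-2.03). The gate for cartilage or bone held 38 cells (0.340%) at day 25 and 39 cells (0.580%) at day 35. Its ratio of shares was 1.71 (1.06 to 2.74). Of these cells 60.5% and 74.4% were also in the otic gate. The markers of the cartilage or bone gate thus do not single out a skeletal cell here. Mmp3, which cleaves matrix proteins, was the only 1 of 13 measured matrix metalloproteinases and inhibitors to reach a 2-fold difference, at 58.5 and 131 CPM (1.16). Among fibroblast markers Pi16, of adventitial fibroblasts, was higher (1.32), and Agtr2, the type 2 angiotensin receptor, lower, at 104 and 24.3 CPM (-2.09).

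Secreted proteins of inner ear fibrocytes and their neighbours had a median of 1.47, with 5 of 9 at least 2-fold higher and 3 lower. Over all measured genes the shares were 9.82% and 6.35%. Ptgds, which makes prostaglandin D2, was at 393 CPM at day 25 and 1988 CPM at day 35 (2.34), and Apod, a lipocalin, at 184 CPM at day 25 and 516 CPM at day 35 (1.49). Slc26a4 (pendrin, the anion exchanger of the endolymphatic sac) was at 3.04 and 32.4 CPM (3.41). Igfbp2, which binds insulin-like growth factors, was at 532 CPM at day 25 and 1469 CPM at day 35 (1.47). Otor (otoraplin), on the other hand, had 561 and 3 UMIs, and Coch (cochlin) and Car3, a carbonic anhydrase, had -1.45 and -1.33. Car3, also a marker of the adipocyte gate, was at 0.36 without the cells of highest UMI number. Otos (otospiralin) had 21 and 57 UMIs, under the limit for a ratio.

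Adipocyte genes were lower in sum, with 6 of 9 at least 2-fold lower, against 6.35% of all measured genes, and a median of -1.15. Fabp4, the fatty acid carrier of fat cells, was at 756 CPM at day 25 and 341 CPM at day 35 (-1.15), and Adipoq (adiponectin) at 46.5 and 17.8 CPM (-1.39). The share of the gate, 1.69% and 1.32%, differed by less (0.783, 0.602 to 1.01). Its cells were the largest at day 25 among the gates of over 50 cells, with a median of 14358 UMIs, and 6911 at day 35. With the cells that held most UMIs left out, a stand-in for doublets, the list's median was 0.36 and Adipoq was at 0.88, and the ratio of shares was 1.56.

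Many genes of rapid stress responses were higher at day 35. Of 21 immediate early and heat shock genes 9 were at least 2-fold higher and 0 lower, against 9.82% and 6.35% of all measured genes. Their median was 0.85. Fos and Jun, which pair into the AP1 transcription factor, were at 1146 CPM at day 25 and 2389.7 CPM at day 35 (1.06) and 341 CPM at day 25 and 904 CPM at day 35 (1.41). Dusp1, the phosphatase that ends MAP kinase signals, was at 102 and 431 CPM (2.08). Hspa1a and Hspa1b, the inducible heat shock proteins, had 2.01 and 2.04, but they are near-identical copies between which reads may be split. Egr1 was flat (0.01), and Nr4a1 lower (-0.44). The mitochondrial share of UMIs was also higher at day 35, and its part in these values was not tested. Hsp90aa1 was higher in KO at 312 and 902 CPM (1.53), where WT had -0.22, and its ratio without the pluripotent gate was 0.40.

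The unfolded protein and integrated stress response list had 5 of 21 genes at least 2-fold higher and 0 lower, with a median of 0.53. Over all measured genes the shares were 9.82% and 6.35%. Hspa5 (BiP), the main chaperone of the endoplasmic reticulum, was at 497 CPM at day 25 and 1301 CPM at day 35 (1.39) and above 0 in 12 of 12 gates. Nupr1, a stress-induced chromatin protein, was at 290.0 CPM at day 25 and 984 CPM at day 35 (1.76), Atf3 at 33.5 and 118 CPM (1.81) and Dnajb9, a partner of Hspa5, at 57.4 and 124 CPM (1.11). Atf4, whose protein is controlled mainly in translation, was at 342 and 228 CPM (-0.59). Metallothioneins, which bind zinc and copper, were split: Mt1, Mt2 and Mt3 had 0.87, 0.59 and 1.57, against -7.36 for Mt4. WT medians were 1.01 for the immediate early and heat shock list and 0.46 for this one.

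H2-D1 and H2-K1, the class I molecules that display peptides, were at 49.7 and 155 CPM (1.64) and 58.8 and 125 CPM (1.09), each above 0 in 11 of 11 gates in which it was measured, and they may share reads. Of the 22 genes of that list 5 were at least 2-fold higher and 0 lower (median 0.40), against 9.82% and 6.35% of all measured genes. The other antigen presentation members, B2m, Tap1, Psmb8 and Psmb9, did not reach 2-fold (0.32, 0.45, 0.80 and 0.91). Isg15, a ubiquitin-like protein induced by interferon, was at 9.23 and 8.98 CPM (-0.04). Of 13 acute phase genes 1 was at least 2-fold higher and 1 lower, the lower one being Saa3, a serum amyloid made by stromal cells, at 546 CPM at day 25 and 179 CPM at day 35 (-1.61), where WT was at 642 and 982 CPM. Of 16 chemokines 0 were at least 2-fold higher and 1, Cxcl9, was lower (-1.08).

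Over all measured genes 9.82% were at least 2-fold higher and 6.35% lower, and several counts of the signalling and metabolic lists below are near these shares. The Notch list (17 measured, 1 at least 2-fold higher, 4 lower, median -0.33) held opposite targets: Hes1 was at 271 CPM at day 25 and 559 CPM at day 35 (1.04) and Hes5, the target gene of neural progenitors, at 33.3 and 9.87 CPM (-1.75). The ligand Dll1 and the Fringe enzymes Lfng and Mfng, which tune Notch receptors, had -1.09, -1.81 and -1.83. In the Wnt list (21 measured, 3 higher, 2 lower) the ligand Wnt5a was at 24.3 and 50.5 CPM (1.05) and the secreted inhibitors Sfrp1 and Notum at 1.78 and 1.65. The ligand Wnt6 and the enhancer Rspo3 were lower (-1.90 and -1.76). In the BMP list (19 measured, 2 higher, 0 lower, median 0.05, negative under TMM scaling) Bmp2 and the target Id4 were higher, both at 1.26.

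The insulin-like growth factor list had 2 of 11 genes at least 2-fold lower, Igf2 and Igfbp4 (-1.04), and 1 higher, Igfbp2. Of 25 hypoxia and glycolysis genes 2 were at least 2-fold higher and 1 lower, with a median of 0.14 that turns negative under TMM scaling. Car9, a carbonic anhydrase induced by low oxygen, was at 77.3 and 188 CPM (1.28), and Pgk1, a glycolytic kinase, at 448 CPM at day 25 and 93.7 CPM at day 35 (-2.26). None of 21 cholesterol synthesis genes and none of 29 nuclear oxidative phosphorylation genes reached 2-fold, with medians of -0.37 and 0.09, the second of which turns negative under TMM scaling. Of 10 measured actin and thymosin genes 0 reached 2-fold in either direction. Cdkn2a, a marker of arrested cells, was the only 1 of 7 cyclin-dependent kinase inhibitors at least 2-fold higher, at 13.9 and 35.2 CPM (1.34), and Cdkn2c the only 1 at least 2-fold lower (-1.35).

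Some genes were lower in every gate with enough cells. Hist1h2ap, a replication-dependent histone H2A gene, was at 323 CPM at day 25 and 16.3 CPM at day 35 (-4.31) and lower in 12 of 12 gates, with log2 ratios from -7.72 to -3.17. Both ends are imprecise. The first rests on 928 and 1 UMIs in the adipocyte gate. The second rests on 311 and 0 UMIs in the gate for Schwann cells or satellite glia, with 0 set to the floor of 3. Gm10020 had -2.37. Pgk1 was below 0 in 12 of 12 gates too, and so was Tubb2b, a neural tubulin, at 263 CPM at day 25 and 59.4 CPM at day 35 (-2.15). Hist1h2ap, Gm10020 and Pgk1 have near-identical copies in the genome among which the authors' counting could split reads, so their levels are uncertain. In WT Hist1h2ap had -4.37. Ribosomal protein genes had a median of -0.52 and the 13 mitochondrially encoded genes one of 0.65.

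**Figure D5:**
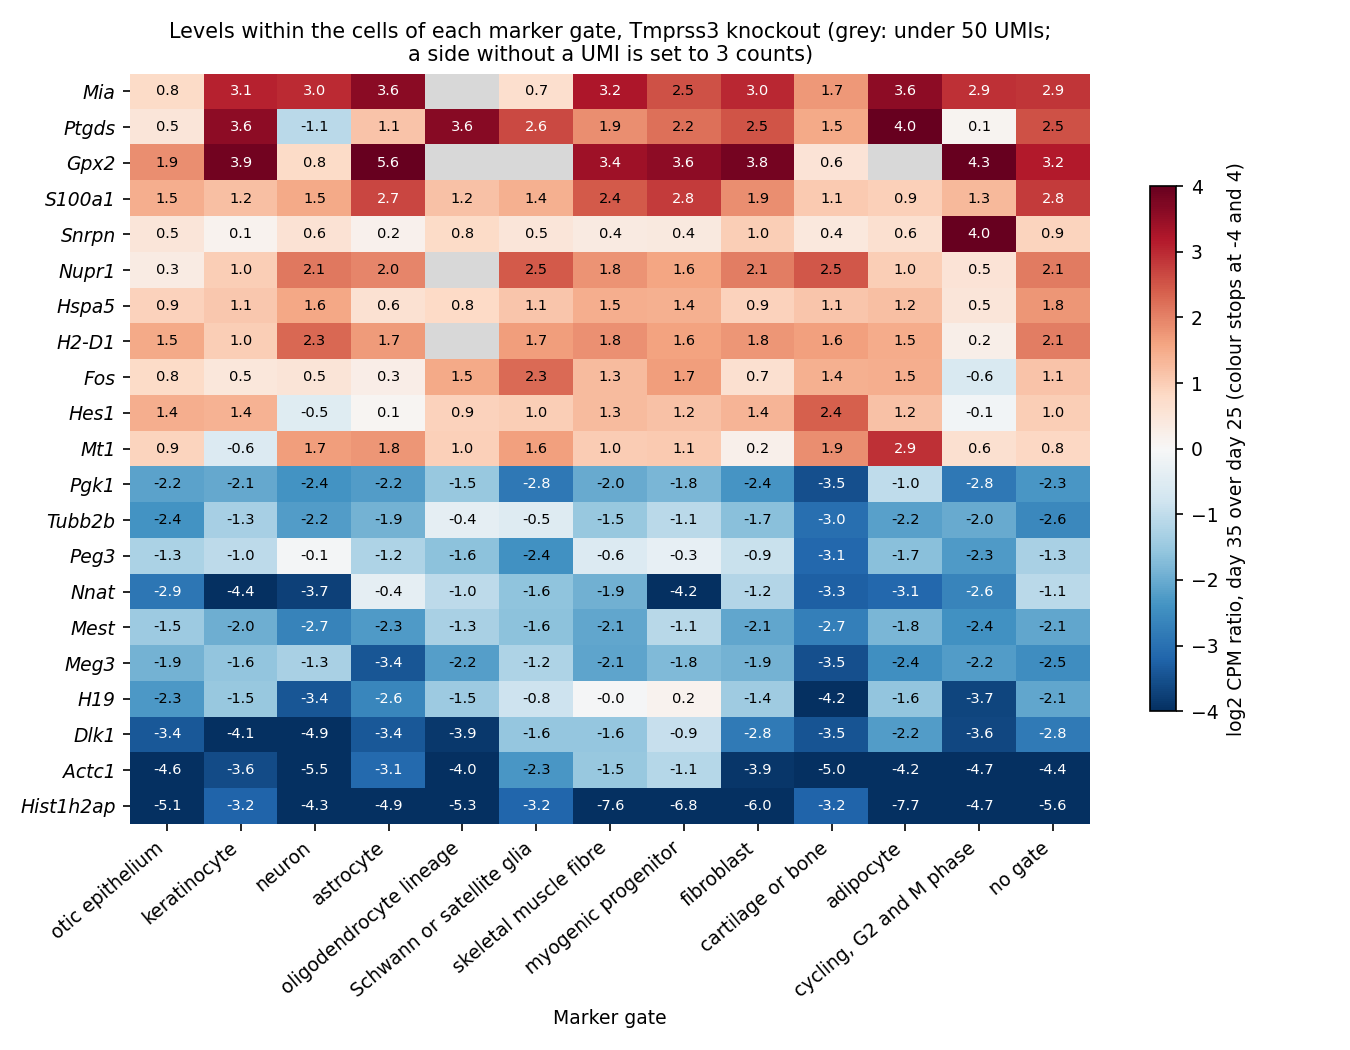
log2 CPM ratio, day 35 over day 25, of 21 genes (rows) within the cells of the 12 marker gates with at least 20 cells on each day, and in cells of no gate (columns), in KO. Hist1h2ap lies between -7.72 and -3.17 in the 12 gates, while H19 lies near 0 in both muscle gates and below 0 in the other gates. At these ends Hist1h2ap had 1 and 0 UMIs at day 35, with 0 set to 3 counts.

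Ranked within each gate by the same bound, a few other genes stood out by name. In the fibre gate P2rx2, an ATP-gated channel, was at 0.719 and 16.7 CPM (4.54) and Alx1, a homeodomain factor of craniofacial mesenchyme, at 0.523 and 22.2 CPM (5.41). Bpifa1, a secreted airway protein, had 2461 and 0 UMIs there. In the fibroblast gate Vgll2, a cofactor of muscle gene expression, had 319 and 1 UMIs and Otor 479 and 1 UMIs. In the adipocyte gate Ghrh, which encodes growth hormone-releasing hormone, had 3 and 63 UMIs, and in the astrocyte gate Cyp26b1, which degrades retinoic acid, had 155 and 7 UMIs. Gates with few cells can owe such a value to 1 cell or a few.

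Set beside WT, KO shared part of its differences over time. Of 13675 genes measured in both genotypes, 1218 were at least 2-fold higher at day 35 in KO and 844 in WT, and 520 were in both, 42.7% of the KO genes and 61.6% of the WT genes. Of those at least 2-fold lower, 798 in KO and 1540 in WT, 475 were in both, 59.5% and 30.8%. WT itself had 6.31% of its 13821 measured genes at least 2-fold higher and 11.7% lower. These overlaps set 1 library pair beside another and carry no test.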

How the data were processed

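Dissociated inner ear organoids of 4 groups (KO and WT at day 25 and day 35) were profiled with a 3' droplet assay, 1 library each. The authors deposited a matrix of UMI counts for each library, whole numbers by gene and barcode, made with Cell Ranger 2.1.0 per the submitters' processing notes, which also name Seurat 2.3.1 and the builds mm10 and GRCm38. The KO matrices held 11307 barcodes at day 25 and 7077 at day 35, and no cell annotation was used.

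Barcodes with at least 500 genes and at most 10% mitochondrial UMIs were kept. UMIs were summed per library, divided by the library's total and given as CPM, and the log2 ratio of day 35 over day 25 was computed for genes with at least 100 UMIs over both KO libraries. Symbols shared by more than 1 gene ID (56) were left out. A gene listed at 0 on a side was set to a floor of 3 counts. Intervals at the 95% level are exact Poisson for levels, Clopper-Pearson for shares and conditional binomial for ratios, and cover counting error only. Each library is a single sample, so no test across samples could be made and no p-value is given.

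For the marker gates, cells were thinned to 2000 UMIs (707 WT cells of day 35 held fewer and were left out of its shares) and a cell was counted with at least 3 markers detected. A ratio of shares needs at least 20 cells over both days, and levels within a gate need at least 20 cells on each day and 50 UMIs of the gene. Doublets were not called. Leaving out the cells of highest UMI number, at 0.8% per 1000 barcodes, was an alternative.

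The genes named are the 15 highest and 15 lowest by the interval bound nearest 0, the 10 highest and 10 lowest log2 ratios among genes of at least 200 CPM in either KO library, and, within each gate, 3 a side by the same bound, without mitochondrial, ribosomal protein, Xist and Y-linked genes. Members of the gene lists are named besides. Of the genes this rule names, 1 is not reported here. The members, lists and markers were chosen with earlier results of these data known. Alternatives covered the cell filter, depth, scaling, gate size and low counts. Scripts used Python 3.11.15, NumPy 2.4.6, SciPy 1.17.1, pandas 2.3.3 and matplotlib 3.10.9, with edgeR 4.0.16 and DESeq2 1.42.0 in R 4.3.3 for scaling factors only, and were tested on simulated data. Gene locations come from GENCODE M21, matched to 27645 of 27998 gene IDs.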

Additional observations from a re-analysis of the deposited data

Results flagged for a closer look

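For 13 results the KO and WT libraries lay on opposite sides between the days, each by at least 2-fold. With 1 library a group none of these differences between genotypes was tested. The share of cells in the astrocyte gate had a day 35 over day 25 ratio of 2.04 in KO and 0.109 in WT. The pluripotency list had a median log2 ratio of 7.51 in KO and -3.57 in WT, with Dppa5a at 8.43 and -7.18, Pou5f1 at 7.51 and -3.68, and Utf1 at 8.17 and -3.46. Among glial and neuronal genes, Gfap was at 2.91 in KO and -3.61 in WT, Slc1a2, a glutamate transporter, at 1.76 and -1.95, and Nefl, a neurofilament, at 1.16 and -1.81. The epidermal keratins Krt1 and Krt10 were at 3.02 and 1.60 in KO and at -3.96 and -1.38 in WT. The macrophage lysozyme gene Lyz2 was at -5.30 in KO and 2.55 in WT. Its WT ratio rests on 59 and 146 UMIs, or 0.808 and 4.73 CPM, against 107 CPM in KO at day 25. The immune gate held 0 cells in both WT libraries. Of genes known from muscle, Myf5, a regulator of myogenic progenitors, was at -1.01 and 1.12, and Myl7, an atrial myosin light chain, at 1.12 and -2.13. Outside the pluripotent gate Myl7 was at -0.39 in KO.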

How the results depend on the processing

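No paired analysis was possible because each group is 1 library and the labels give no replicate numbers. The count of genes at least 2-fold higher at day 35 (1391 of 14169) was 2190 of 16830 with a minimum of 20 UMIs. With a minimum of 500 UMIs it was 686 of 10923. The count of lower genes (900) was 1398 and 484 under these minimums. Counts of both directions, and also their shares of the genes measured, were thus lower under the higher minimum. These counts stayed within 1.5 times the reported values under the other cell filters, scalings and weights tried. Without cells in 2 or more gates, an alternative chosen after seeing the data, they were 1357 and 866. The number of gates at least 2-fold more frequent (4) was 2 with at least 1000 genes and at most 5% mitochondrial UMIs, where the astrocyte ratio was 0.863 and Matn1 had a log2 ratio of -0.0106. Without the cells of highest UMI number, log2 ratios had the opposite sign for Adipoq (0.88), Car3 (0.36), Cidec (0.26), Csf1r (0.0167), Nefl (-0.12), Plin1 (0.17) and Retn (1.06), and medians did for the adipocyte list (0.36) and the S phase list (-0.61). The S phase median was also negative for the mean of each cell's CPM (-0.34) and without the pluripotent gate (-0.95), where Myl7 was at -0.39. With at least 500 UMIs the median of the Schwann or satellite glia list was 0.21. Apart from the pluripotent gate, where the cells left out carry the RNA, the cause of these reversals was not tested.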
